A study of Mus musculus with 30 samples.

Results

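The regions described here carried an H3K27ac peak in the lung adenocarcinoma line CK1750 with the G9a/Glp inhibitor UNC0638 but not with DMSO, and in the line Tnm2 with DMSO but not with UNC0638. In other words, their peak was gained in CK1750 and lost in Tnm2 under the same inhibitor. They were found by merging the overlapping or touching intervals of 4 peak lists on chromosomes 1 to 19 and X, and by keeping each merged region that held a peak of the CK1750 UNC0638 and Tnm2 DMSO lists and no peak of the other lists. The rule kept 1088 of 37671 merged regions (2.89%). Membership was selected on the peak calls themselves, so presence, absence and score in these lists are given as a description and none of them was tested.

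Acetylation of lysine 27 on histone H3 (H3K27ac) marks active promoters and enhancers, and distal acetylated elements differ more between cell types than promoters do. G9a (Ehmt2) and its partner Glp (Ehmt1) place mono- and dimethylation on lysine 9 of the same histone, a mark of silent chromatin, and UNC0638 is a small molecule that blocks their catalytic activity. AP-1, a dimer of Fos and Jun proteins, binds many distal enhancers of epithelial tumor cells, and Nkx2-1, Foxa2 and Cebpa are transcription factors of the lung epithelium.

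The 4 groups were the mouse lines CK1750 and Tnm2, each cultured with 1 µM UNC0638 or with its solvent, DMSO. The study screened CK1750 as a line that resembles tumor-propagating cells, which it marks by Sca-1 and CD24, and describes Tnm2 as low in its own Sca-1. Each line stands for 1 tumor-derived culture and not for a class of tumors. The labels assign the 9 H3K27ac samples (3 of CK1750 with DMSO and 2 in each of the other groups) to 1 merged list per group, and no source used here says which libraries each list holds. Of the 3 CK1750 DMSO samples, 2 were sequencing runs under the same replicate number, and the study's methods state more biological replicates than the labels number. In CK1750 with UNC0638 the 2 samples bore a single replicate number. No value below therefore has a replicate spread, no difference between groups could be tested, and shares carry Wilson 95% intervals for counting error alone. Depth is unknown, since the lists hold no read totals. On these chromosomes the CK1750 lists held 27340 peaks with DMSO and 24592 with UNC0638, the Tnm2 lists held 30631 and 18789, and a loss of peaks and a lower depth of the short Tnm2 UNC0638 list cannot be told apart. Of 9 markers of lung adenocarcinoma, Nkx2-1, Cdh1, Krt8, Krt18 and Krt19 had a peak within 1 kb of a transcription start site (TSS) in every list, whereas Sftpc, Napsa and Epcam had none in any list and Sftpb had one only in Tnm2 with UNC0638. Of 9 markers of blood, endothelial and stromal cells, only Col1a1 had such a peak, in every list but Tnm2 UNC0638.

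Sequences of 8 regions are given first, all from the RefSeq GRCm38.p6 assembly (mm10). The first set shows the centers of the 3 regions with the highest lower score, together with a promoter that lay whole inside a region. Capitals mark any of the 18 strings searched for on either strand. The stretch at Ergic1 is chr17:26595544-26595743 on the plus strand, that in Lrrc8d is chr5:105777438-105777637 on the plus strand and that near Nhlh1 is chr1:172064221-172064420 on the plus strand. The Lipt1 promoter is the 250 bases before its start, chr1:37871488-37871737, on the plus strand.
Ergic1: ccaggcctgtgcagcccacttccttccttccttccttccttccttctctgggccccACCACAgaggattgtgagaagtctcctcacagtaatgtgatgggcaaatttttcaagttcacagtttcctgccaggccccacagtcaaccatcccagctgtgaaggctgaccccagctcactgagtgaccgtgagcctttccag
Lrrc8d: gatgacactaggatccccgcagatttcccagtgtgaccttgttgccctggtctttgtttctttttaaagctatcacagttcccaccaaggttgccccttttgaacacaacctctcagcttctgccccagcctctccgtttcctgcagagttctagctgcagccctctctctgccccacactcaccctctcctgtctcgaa
Nhlh1: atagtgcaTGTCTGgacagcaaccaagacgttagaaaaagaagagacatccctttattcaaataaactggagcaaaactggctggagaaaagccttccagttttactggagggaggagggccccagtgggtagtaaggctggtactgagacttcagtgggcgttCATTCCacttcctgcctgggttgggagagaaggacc
Lipt1: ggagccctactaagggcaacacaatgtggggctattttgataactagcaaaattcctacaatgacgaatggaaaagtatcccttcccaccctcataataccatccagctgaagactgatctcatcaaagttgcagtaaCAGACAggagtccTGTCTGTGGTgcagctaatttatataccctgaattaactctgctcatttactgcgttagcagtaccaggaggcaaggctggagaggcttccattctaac
The Ergic1 center held 1 RUNX string (TGTGGT, here as its complement), the Nhlh1 center held a SMAD (CAGACA) and a TEAD string (GGAATG), and the Lrrc8d center held none of the 18. The Lipt1 promoter held RUNX and SMAD strings and only 2 CpG.

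The second set shows 161 bases around the AP-1 string (TGANTCA, capitals) nearest the center of regions beside genes from the lists described further on. They were chosen to show AP-1 because no other string was more frequent in the regions than in the sequence around them by as many percentage points. All are on the plus strand and none overlapped an annotated exon. The stretch beside Areg is chr5:91157289-91157449, that inside Tead3 is chr17:28341027-28341187, that beside Pxn (within a neighboring gene, Gcn1l1) is chr5:115569303-115569463, and that beside Spp1 is chr5:104433153-104433313.
Areg: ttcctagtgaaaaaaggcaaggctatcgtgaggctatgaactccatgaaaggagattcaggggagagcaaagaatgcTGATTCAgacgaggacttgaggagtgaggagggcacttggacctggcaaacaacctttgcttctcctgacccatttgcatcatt
Tead3: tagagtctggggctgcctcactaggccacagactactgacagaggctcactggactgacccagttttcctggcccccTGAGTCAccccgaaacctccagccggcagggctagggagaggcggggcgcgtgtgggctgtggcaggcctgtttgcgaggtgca
Pxn: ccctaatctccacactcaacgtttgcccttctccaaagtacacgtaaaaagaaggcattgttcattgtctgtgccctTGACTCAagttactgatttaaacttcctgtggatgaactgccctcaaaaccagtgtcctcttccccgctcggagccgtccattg
Spp1: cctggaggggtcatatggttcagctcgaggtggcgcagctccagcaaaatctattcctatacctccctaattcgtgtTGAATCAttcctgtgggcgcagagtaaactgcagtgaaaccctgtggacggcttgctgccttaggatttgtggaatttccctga
Each stretch held 1 AP-1 string, and its free base differed among the 4 stretches as read on the plus strand. Read on the other strand, the Areg string is that of Spp1 and the Tead3 string is that of Pxn.

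The first question was how this combination compares with the others. UNC0638 went with a gained peak in CK1750 at 4435 regions (11.8% of all) and with a lost peak in Tnm2 at 12023 (31.9%). The regions with both made up 24.5% (23.3 to 25.8) of those gained in CK1750 and 9.05% (8.55 to 9.58) of those lost in Tnm2. The opposite combination, lost in CK1750 and gained in Tnm2, held 135 regions. Loss in both lines was seen at 1118 regions and gain in both at 175, while 12885 regions were in all 4 lists. Over the whole table Tnm2 had 12023 losses against 1553 gains, and CK1750 had 5634 losses against 4435 gains.

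**Figure D1:**
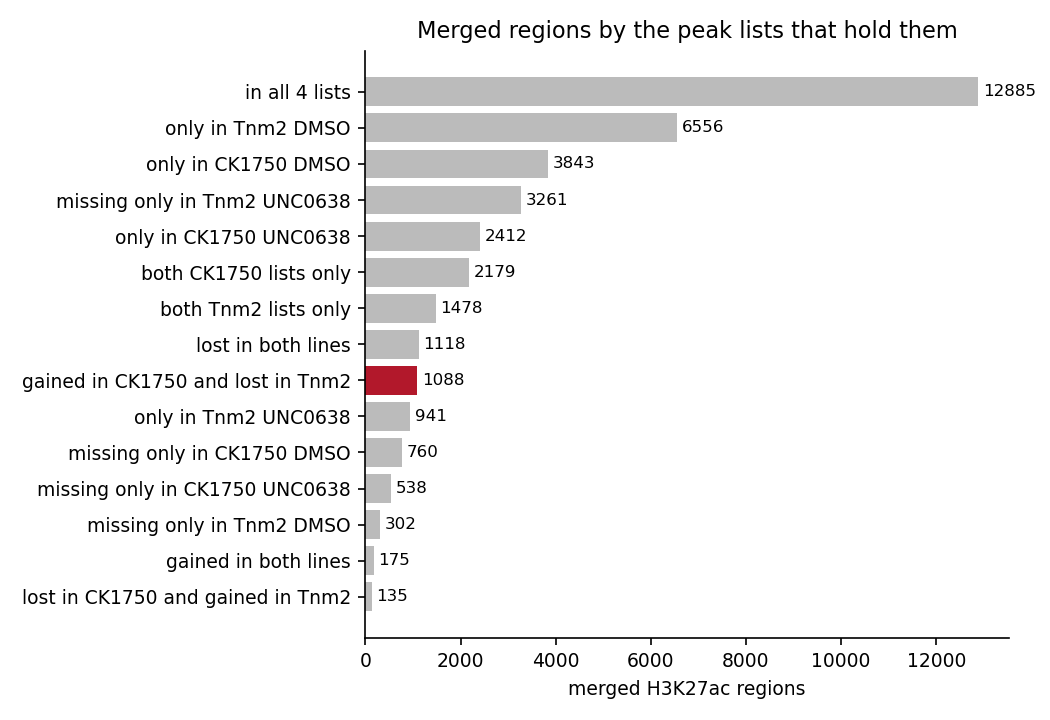
Number of merged H3K27ac regions (x axis) in each of the 15 combinations of the 4 peak lists, 1 bar a combination. The 1088 regions gained in CK1750 and lost in Tnm2 (red) were about as many as the 1118 lost in both lines and more than the 135 with the opposite change.

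Among the 1848 regions that were gained in CK1750 and had a peak in Tnm2 with DMSO, 58.9% (56.6 to 61.1) had no peak in Tnm2 with UNC0638. The share was 43.4% over all Tnm2 DMSO regions, 20.2% (19.6 to 20.8) over those with a peak in both CK1750 lists, 67.5% (65.2 to 69.7) over those lost in CK1750 and 81.6% (80.7 to 82.4) over those with no CK1750 peak. These shares rest on the same calls as the rule and were not tested. They also moved with the score of the Tnm2 DMSO peak, the caller's P value on a negative log scale, which starts at 50 for the calling cutoff. At a Tnm2 DMSO score from 50 to 75, 77.9% (74.1 to 81.2) of the CK1750-gained and 74.9% (72.2 to 77.4) of the CK1750-kept regions were lost, and these intervals overlap. At a score of 200 or more the shares were 20.1% (15.6 to 25.5) of 249 gained regions and 4.24% (3.87 to 4.64) of 10524 kept regions. This range has no upper limit, so scores within it were not matched between the 2 states. For regions lost in CK1750 the share at 200 or more was 17.6% (12.9 to 23.7), below that of gained regions, whereas at 75 to 100 it was 75.9% (71.1 to 80.1) against 69.1% (64.2 to 73.6) for gained regions, and the intervals overlap in both cases.

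**Figure D2:**
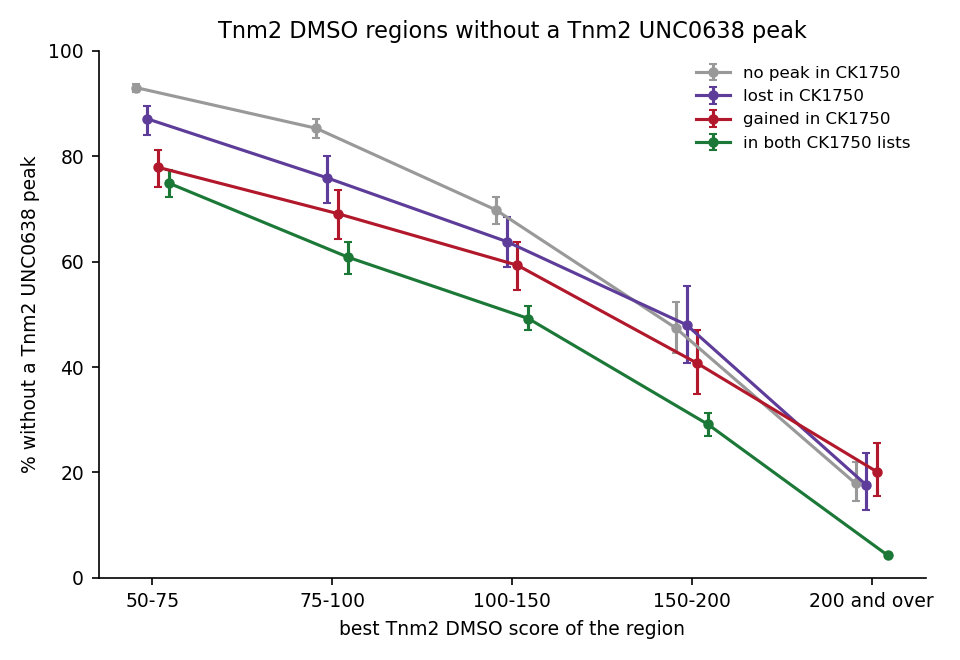
Percentage of regions with a Tnm2 DMSO peak that had no Tnm2 UNC0638 peak (y axis) by the best Tnm2 DMSO score of the region (x axis), for 4 states in CK1750, with Wilson 95% intervals. The share fell with score in every state, and from 75 upward the gained regions (red) lay above those in both CK1750 lists (green), with 69.1% against 60.8% at 75 to 100. The last range has no upper limit, and scores within it were not matched between states.

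The member peaks were weak peaks of their lists. The CK1750 UNC0638 score had a median of 73.89 (50.01 to 363.18) and the Tnm2 DMSO score a median of 86.85 (50 to 451.74), against 179.6 and 140.1 over the whole lists. Regions only in CK1750 UNC0638 and only in Tnm2 DMSO scored lower still, with medians of 64.84 and 66.80. The median member thus stood at percentile 19.42 of the CK1750 UNC0638 list and 31.25 of the Tnm2 DMSO list. Both scores were under 100 in 530 regions (48.7%), both reached 100 in 115 (10.6%) and both reached 200 in 3. Score in one line said little about score in the other (Spearman's rho 0.16 and Pearson's r of log2 scores 0.15 across 1088 regions, which share their lists and are not independent).

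**Figure D3:**
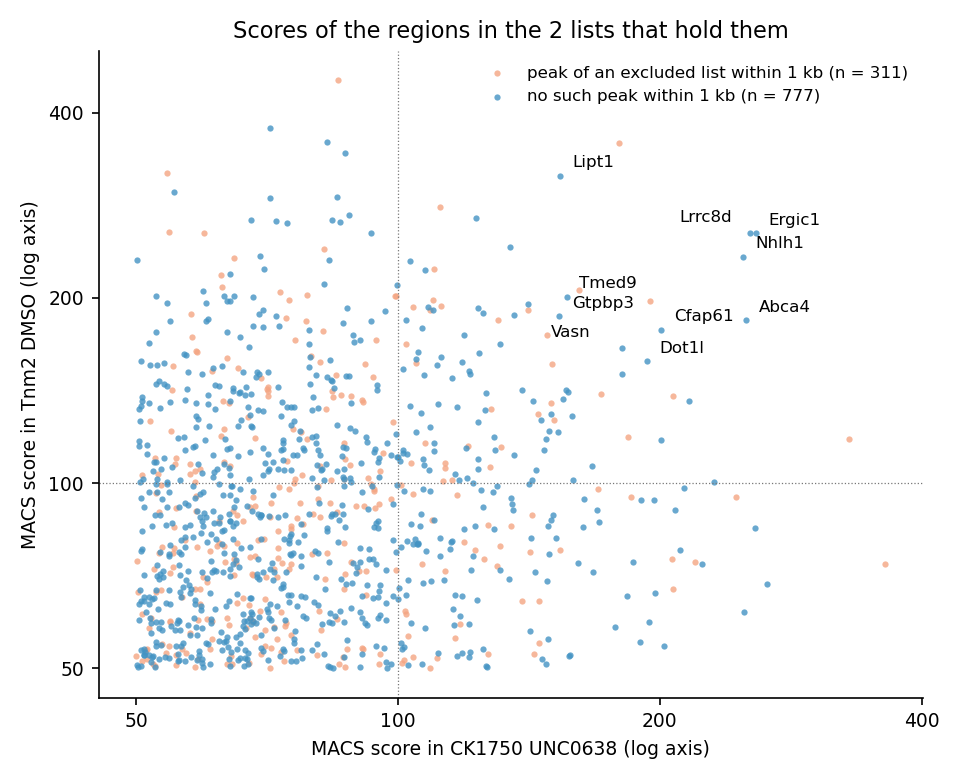
Best CK1750 UNC0638 score (x axis) against best Tnm2 DMSO score (y axis, both log axes) of the 1088 regions, 1 point a region, with dotted lines at a score of 100 and the names of the 10 highest-scoring regions without a peak of the excluded lists within 1 kb. Most points sit in the lower left, 530 of them under 100 on both axes, and the 311 regions with a peak of the excluded lists within 1 kb (orange) are spread among the rest.

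The peaks of the 2 lines lay on the same element in most regions. The best peaks overlapped over a median of 68.62% of the longer one, with 898 of 1088 regions (82.5%) at 50% or more, and their centers lay a median of 107.2 bp apart. Median region width was 854.5 bp, against 957 bp over all regions, and 1050 regions (96.5%) held exactly 1 peak of each list. Absence was less clear-cut. A CK1750 DMSO peak lay within 1 kb of 264 regions (24.3%) and a Tnm2 UNC0638 peak within 1 kb of 188 (17.3%), leaving 777 (71.4%, 68.7 to 74.0) with neither. With a margin of 5 kb, 507 regions had neither, and with 50 kb only 81. Most members (1007 of 1088) thus had a peak of at least 1 excluded list within 50 kb. The member nearest to the boundary of the rule, at chr5:116022088-116023509, ended 7 bp from a CK1750 DMSO peak, whereas a region that the rule left out, at chr8:118564621-118566623, overlapped such a peak by 17 bp. A near-identical copy elsewhere in the genome was found for 4 regions.

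The highest-scoring members lay at genes of varied function. Among the 777 regions without a nearby peak of the excluded lists, the first by the lower of its 2 scores was at Ergic1 (chr17:26594584-26596704), which encodes a protein cycling between endoplasmic reticulum and Golgi, with scores of 258.09 in CK1750 UNC0638 and 255.12 in Tnm2 DMSO. It covered the start of a shorter Ergic1 transcript 33.1 kb from the 5′ end of the gene, and the nearest peaks of the excluded lists were 1.31 and 1.42 kb away, close to the limit. The next lay in an intron of Lrrc8d (chr5:105776421-105778654), a subunit of volume-regulated anion channels, with 254.17 and 255.24, and its nearest peaks of the excluded lists were 13.4 and 13.5 kb away. The third was intergenic, 5.90 kb from the start of Nhlh1 (chr1:172063473-172065168), a basic helix-loop-helix factor known from neurons, with 249.24 and 233.3. These 3 regions were the members with both scores over 200.

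A region in Abca4 (chr3:122130800-122132262), a retinoid transporter of photoreceptors, scored 251.4 and 183.83 and covered an internal start 86.4 kb into the gene. An intronic region of Cfap61 (chr2:146017723-146019131), a component of motile cilia, scored 200.85 and 177.67. The region at Vasn (chr16:4639760-4640639), which encodes a membrane protein that binds TGF-beta, covered its only start and scored 181.01 and 166.1. A region in an intron of Dot1l (chr10:80766226-80767294), a histone H3 methyltransferase, scored 193.17 and 157.91. The Tmed9 region (chr13:55593053-55593967, 156.39 and 200.9) covered a start of a cargo receptor gene of the early secretory pathway. The Lipt1 (chr1:37870891-37872953, 153.56 and 315.91) and Gtpbp3 (chr8:71487297-71488483, 153.26 and 186.64) regions covered the 5′ ends of genes for mitochondrial protein lipoylation and mitochondrial tRNA modification. Regions in Tnrc6b (194.65 and 197.8), 1190005I06Rik (179.6 and 357.48) and Ldb1 (161.37 and 206.4) scored as high but had a peak of an excluded list within 1 kb.

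The next question was where in the genome the regions lay. A promoter position, within 1 kb of a TSS, was held by 176 of 1088 regions (16.2%, 14.1 to 18.5), against 34.8% of all regions, 62.6% of those in all 4 lists and 45.6% of those missing only in Tnm2 UNC0638. The share was close to that of regions only in CK1750 UNC0638 (14.9%, 13.6 to 16.4) and of those missing only in CK1750 DMSO (15.9%, 13.5 to 18.7), and above that of regions only in Tnm2 DMSO (12.3%, 11.5 to 13.1). Of the regions lost in both lines 224 of 1118 lay at a promoter (17.8 to 22.5%), an interval that overlaps that of the members. The center lay in an intron in 664 regions (61.0%, 58.1 to 63.9, against 54.1% of all), between genes in 343 (31.5%), in a coding exon in 27 and in the rest of an exon in 54. Median distance to the nearest TSS was 10.4 kb against 5.29 kb over all regions, and 95 members were more than 50 kb from any TSS. The promoter share of members was 15.2% (12.0 to 19.0) at a Tnm2 DMSO score under 75 and 17.4% (12.2 to 24.3) at 150 or more. In regions only in Tnm2 DMSO it was 11.1% (10.2 to 12.1) and 16.2% (12.2 to 21.1) at these scores, with overlapping intervals. When only peaks with a score of at least 100 were counted in all 4 lists, the rule kept 722 regions, of which 115 were among the 1088. In that largely different set the promoter share was 24.5%.

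**Figure D4:**
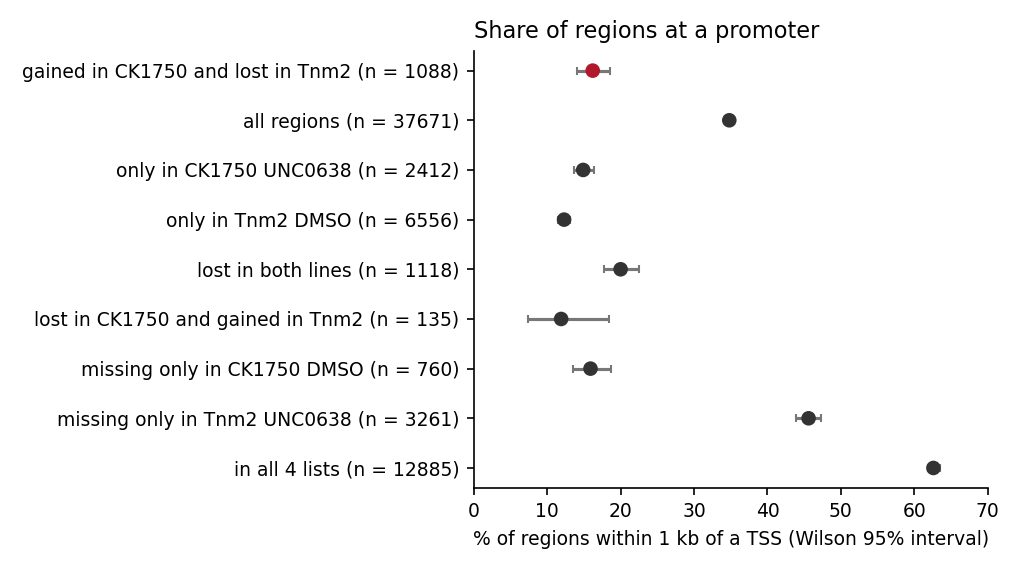
Percentage of regions within 1 kb of a TSS (x axis) for the regions gained in CK1750 and lost in Tnm2 (red), all merged regions and 7 other combinations, with Wilson 95% intervals. The members at 16.2% lay beside the combinations that 1 or 2 lists hold and far below the 62.6% of regions in all 4 lists.

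A member lay within 1 kb of a TSS of 140 protein-coding genes, and 95 of these genes (67.9%, 59.7 to 75.0) had no peak within 1 kb of any of their starts in CK1750 with DMSO or in Tnm2 with UNC0638. The rule itself keeps such peaks from overlapping the member, so this share is a description, and with 5 kb in place of 1 kb it was 54.3%. No such share was computed for other genes or for the other combinations, so whether it is high cannot be said. For 86 of the 95 the member lay at the 5′ end of the gene rather than at an internal start. Besides Abca4, Vasn, Tmed9, Lipt1 and Gtpbp3, the highest-scoring were Arhgap22 (149.84 in CK1750 UNC0638 and 134.91 in Tnm2 DMSO), a regulator of Rac, Sh3bp1 (130.99 and 168.25), a GTPase-activating protein gene that shares the region with the gene model Gm49510, Rbl2 (146.02 and 126.73), a retinoblastoma-family repressor of cell cycle genes, and Cp (125.92 and 131.57), the copper-carrying ceruloplasmin. The nearest CK1750 DMSO peak to the Rbl2 start region was 62.2 kb away. In 45 genes a CK1750 DMSO peak and in 30 genes a Tnm2 UNC0638 peak marked a start, and all of the 30 were among the 45. At promoters the members had a median observed-to-expected CpG ratio of 0.51, against 0.64 over all promoter regions. The ratio was 0.38 in promoter regions only in CK1750 UNC0638, 0.27 in those only in Tnm2 DMSO and 0.54 in those lost in both lines, so a ratio under that of all promoters was not particular to the members.

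The regions were spread over all chromosomes tested. Their share of the merged regions ran from 1.41% (0.769 to 2.58) on chromosome X to 3.75% (3.02 to 4.65) on chromosome 15, with 3.63% on chromosome 5 and 3.42% on chromosome 3. Of the regions adjacent to a member, 4.45% (3.60 to 5.49) were members, against 3.12% (2.98 to 3.27) next to any region. Members no more than 50 kb apart were joined into runs, whether or not other regions lay between them. Of these runs, 847 held 1 member, 100 held 2, 11 held 3 and 2 held 4. The runs of 4 were at Smurf1 and Kpna7 on chromosome 5, over 53.4 kb with 12 merged regions in all, and at Slc6a18, Slc6a19 and Slc12a7 on chromosome 13, over 91.9 kb with 16. Of the same adjacent regions, 16.3% (14.7 to 18) were gained in CK1750, against 12.5% next to any region, and 33.4% (31.3 to 35.6) were lost in Tnm2, against 32.3%. Regions adjacent to those only in CK1750 UNC0638 were gained in CK1750 as often, at 16.0% (14.9 to 17.1), so the share is not particular to the members.

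Few genes had more than 3 members. Gm20388, a gene model of 4435 kb on chromosome 8 that spans many other genes, held 10 members of 212 regions, and the next genes held 4 each. Chd9, a chromatin remodeler, had 4 of 13 nearby regions, 2 of which were at or beside the start of its neighbor Rbl2. Kpna7 and Smurf1, an importin and a ubiquitin ligase that acts on BMP signaling, shared 4 of 17 regions. Arhgef28, a guanine nucleotide exchange factor, held 4 of 25, all intronic and with CK1750 UNC0638 scores from 61.68 to 107.27 and Tnm2 DMSO scores from 62.56 to 122.77. Sorcs2 (4 of 46), Osbpl3 (4 of 29), Nav2 (4 of 42) and Iqsec1 (4 of 38) also had 4, of which 4, 3, 4 and 2 lay within the gene itself. Ergic1 (3 of 27) and Gse1 (3 of 60) followed. Of 21728 protein-coding genes, 1964 (9.04%) had a member inside the gene or within 50 kb, of which 1695 had 1.

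Genes of the study's G9a-linked set had none within 50 kb. Of those 10 genes, which include Ly6a (Sca-1) and the metalloproteinases Mmp10 and Mmp13, 0 had a member within 50 kb, where 38 merged regions lay, and 0 of 17 H3K9 methyltransferase and demethylase genes had one among 90 regions. Members made up 2.83% of the regions near protein-coding genes as a whole. The share of so few genes has a wide interval (0 to 27.8% for the 10 genes), so a share near the 9.04% of all genes was not detectable. Within 100 kb, 1 of the 10 and 1 of the 17 genes had a member, as did 3189 of 21728 protein-coding genes.

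Genes of the lung epithelium had members around them, but those at Nkx2-1, Foxa2 and Id2 lay within 1 kb of peaks of the excluded lists. Of 18 lung lineage transcription factors, 6 had a member within 50 kb (33.3%, 16.3 to 56.3), and 4.65% of nearby regions were members. Over all protein-coding genes these shares were 9.04% and 2.83%. The one beside Nkx2-1 scored 62.65 in CK1750 UNC0638 and 217.91 in Tnm2 DMSO, and peaks of the excluded lists lay 0.264 and 0.143 kb away. Foxa2 had the same picture, with 64.78 and 231.86 and peaks 0.481 and 0.759 kb away. At Id2, an inhibitor of differentiation factors, the scores were 244.6 and 95.02 and the region lay 0.0400 kb from the start. A CK1750 DMSO peak lay 0.427 kb from this region, and its 2 peaks overlapped over 31.3% of the longer one. Foxp1 scored 60.45 and 185.16. Cebpa (72.6 and 63.24) and Grhl2 (60.93 and 60.08) had weak members in both lines.

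Of 14 epithelial state genes, 4 had a member (3.79% of nearby regions). Cdh1, the E-cadherin gene, had 2, of which one 13.3 kb outside the gene scored 109.82 and 191.07 and one in the gene scored 69.66 and 52.84. The members near Krt19 (109.95 and 222.98), Epcam (116.32 and 65.92) and Krt8 (56.93 and 80.75) were 5.02, 47.8 and 29.8 kb from the gene. A Tnm2 UNC0638 peak lay 0.0220 kb from the Krt19 member, and a CK1750 DMSO peak lay 0.517 kb from the Krt8 member. Peaks of the excluded lists lay 0.0520 and 0.260 kb from the Cdh1 member in the gene. The Epcam member and the other Cdh1 member had none within 1 kb. In contrast, 1 of 14 mesenchymal state genes had one (1.37% of nearby regions), Spp1 (osteopontin), at 52.04 and 51.21, barely over the calling cutoff in both lists. The intervals of these 2 shares overlap (11.7 to 54.6% and 1.27 to 31.5%). Of the 9 adenocarcinoma markers 6 had a member, counting Nkx2-1, Cdh1, Epcam, Krt8 and Krt19 again, and 8 of 108 nearby regions (7.41%) were members. Of the 9 markers of other cells 0 had one, with 29 regions nearby. Over all protein-coding genes the shares were 9.04% of genes and 2.83% of regions. Sftpc, the surfactant gene without a promoter peak in any list, had 2 members at 16.9 and 21 kb.

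Of 20 cytoskeleton and adhesion genes, 7 had a member, and 12 of 227 nearby regions (5.29%) were members, against 2.83% around all protein-coding genes. The intronic region of Actn1, an actin cross-linker, had the highest score of the list, 330.18 in CK1750 UNC0638 and 117.82 in Tnm2 DMSO, with a Tnm2 UNC0638 peak 0.103 kb away. Actn4, its paralog, showed 219.36 and 74.39, with peaks of the excluded lists 0.625 and 0.721 kb away. Myh9, a non-muscle myosin heavy chain, had members of 113.14 and 107.72 and of 99.52 and 72.21. Peaks of the excluded lists lay 0.0470 and 0.148 kb from the first and 0.529 and 0.775 kb from the second. Ptk2, the focal adhesion kinase, had 2, Arhgef28 had 4 and Pxn had 1. A CK1750 DMSO peak lay 0.0820 kb from 1 of the Ptk2 members, whereas the Arhgef28 and Pxn members had no peak of the excluded lists within 1 kb.

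Around 26 genes of growth factor signaling 5 of 164 nearby regions (3.05%) were members, near the 2.83% around all protein-coding genes. Members lay within 50 kb of the ligands Areg (126.38 in CK1750 UNC0638 and 139.99 in Tnm2 DMSO), Ereg (85.17 and 89.83) and Tgfa (90.93 and 65.61) and of the receptors Erbb2 (59.85 and 255.0) and Erbb3 (91.09 and 135.4). The Areg region, whose sequence is given above, stood 15.6 and 16.6 kb from the nearest peaks of the excluded lists, and the Erbb2 and Erbb3 regions less than 1 kb. Of 24 Wnt pathway genes 5 had one (3.21% of nearby regions), the ligands Wnt5b (54.71 and 183.2) and Wnt7b (98.76 and 92.49), the receptor Fzd6, the scaffold Axin1 and the factor Tcf7l1. Of 16 TGF-beta pathway genes 3 had one (1.89% of nearby regions), the signal transducer Smad3 (56.87 and 92.68), the inhibitory Smad7 and the corepressor Ski (85.09 and 104.81). Of 18 YAP/TEAD genes 2 had one (1.65% of nearby regions), Tead3 (64.08 and 136.05) and Wwtr1 (55.57 and 50.7). Peaks of the excluded lists lay 0.144 and 0.219 kb from the Wwtr1 member.

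Of 24 collagen, laminin and integrin genes 6 had a member, and 2.30% of nearby regions were members. Over all protein-coding genes, for this and the next lists, the shares were 9.04% of genes and 2.83% of regions. Col4a1 and Col4a2, the paired basement membrane collagens, shared one at 129.37 and 113.25, and Itgb5 (98.77 and 80.86), Itga3 (63.93 and 105.73), Lamc1 (52.66 and 108.14) and Col5a1 (56.0 and 51.68) had weaker ones. Of 23 metalloproteinase and inhibitor genes 2 had one (2.00% of nearby regions), Mmp8 (60.58 and 123.64) and Timp2 (81.19 and 61.89). Peaks of the excluded lists lay 0.216 and 0.0580 kb from the Timp2 region. The Mmp8 region lay 26.3 kb from that gene, and the nearest protein-coding start was that of Mmp27, 23.3 kb away. The Mmp8 region was 169 kb from the nearest peak of either excluded list, and so the most isolated of the regions named here. Of 12 AP-1 subunit genes 3 had a member (4.30% of nearby regions). These were Jund (200.52 and 117.5, at the start of Pgpep1 39.0 kb away), Junb (92.7 and 78.13, in an intron of Rnaseh2a) and Fosb (2 members in Vasp, each under 70 in both lists). CK1750 DMSO peaks lay 0.269 and 0.365 kb from the Fosb members. The gene counts of all these lists depend on gene length and on the number of regions nearby, neither of which was adjusted for.

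The last question was what the sequences share. Base composition was that of distal acetylated regions, with a median GC content of 48.8% against 50.3% over all regions and 48.3% both for members and for all regions away from promoters. Repeats covered a median of 11.8% of a member and more than 50% of 46 members. In the central 300 bases, the AP-1 string (TGANTCA, both strands) was found in 159 members (14.6%, 12.6 to 16.8), against 11.8% (11.5 to 12.1) of all regions and 8.58% (7.40 to 9.94) of 1864 windows lying 5 kb to either side. Away from promoters the share was 15.6% (13.4 to 18.1) in members and 15.1% (14.6 to 15.5) in all regions. AP-1 was thus more frequent in the members than beside them, and away from promoters the interval of the members included the share over all regions. Within 500 bp of the center the AP-1 strings were evenly placed, with 47 to 65 in each stretch of 100 bp.

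**Figure D5:**
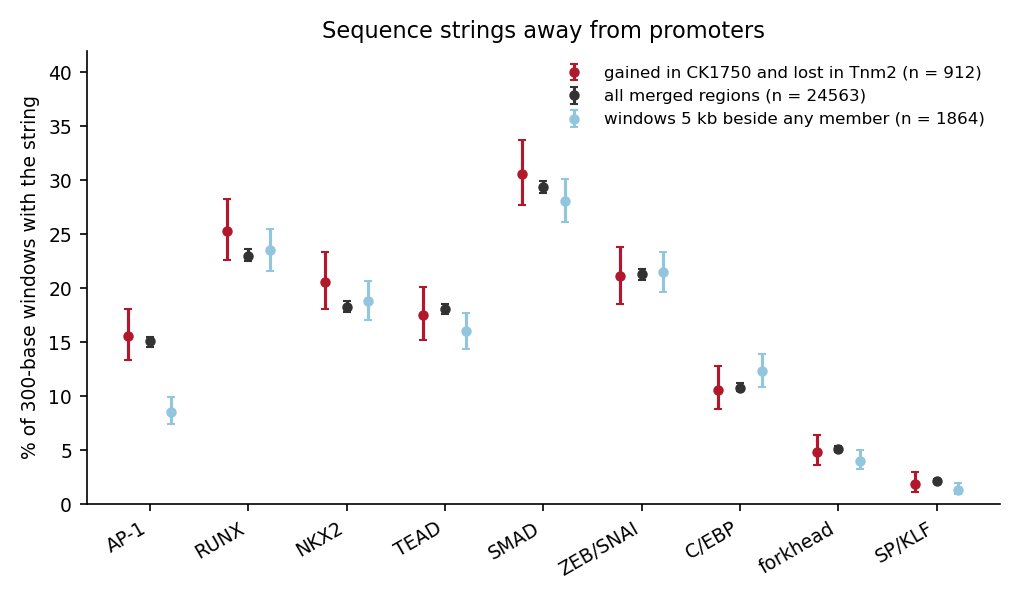
Percentage of 300-base windows holding each of 9 strings (y axis) in members away from promoters (red), all merged regions away from promoters (black) and windows 5 kb beside any member (blue), with Wilson 95% intervals. Only for AP-1 do the red and blue intervals stand apart, at 15.6% and 8.58%, and the red and black intervals overlap for every string shown.

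Other strings did not set the members apart from distal regions. The RUNX (TGTGGT, 25.3% of members and 23.0% of all regions away from promoters), NKX2 (CAAGTG, 20.6% and 18.3%), TEAD (GGAATG, 17.5% and 18.1%), SMAD (CAGACA, 30.6% and 29.4%), ZEB/SNAI (CAGGTG, 21.1% and 21.3%), C/EBP (TTGCNNAA, 10.6% and 10.8%) and forkhead strings (TGTTTAC, 4.82% and 5.07%) differed by less than the counting error of the members. Short strings of this kind are common by composition, and in the flanking windows RUNX reached 23.5% and SMAD 28.1%. The SP/KLF string (GGGCGGGG) was found in 3.22% of members against 7.45% of all regions, and at promoters in 10.2% (6.57 to 15.6) against 17.3% (16.7 to 18). At promoters AP-1 was found in 9.66% (6.12 to 14.9) of members against 5.66% (5.28 to 6.07) of all regions. Promoter regions only in CK1750 UNC0638 (AP-1 8.89%, SP/KLF 8.61%) and only in Tnm2 DMSO (8.07% and 8.32%) had shares within the members' intervals for both strings. The GATA string (AGATAAG) was in 3.95% of members and the E-box string (CACGTG) in 3.77%. The SOX string (ACAATGG) was in 3.31%, the ETS string (CCGGAAGT) in 0.643% and the CRE string (TGACGTCA) in 0.276%. The HNF4 (CAAAGTCCA) and NRF2/BACH strings were in 0.460% each. The long CTCF and NFI strings were in 0 of 1088, which allows a share of up to 0.276%, and they were in 0.00796% and 0.0345% of all regions. A string is a match of letters and not a measured binding site, and the AP-1 string is contained in the NRF2/BACH string.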

How the data were processed

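H3K27ac ChIP-seq was done by the authors in CK1750 and Tnm2 cells with DMSO or 1 µM UNC0638. Per the study's methods, reads were mapped with bowtie2 to mm10 and MACS 1.4.2 called peaks with P below 1e-05. The use of input as the control and the libraries behind each list are not given in the sources used here. The deposited lists give positions and a score, the caller's P value on a negative log scale, which ranks peaks within a list. Scores of both lists are given side by side and were not tested against each other. H3K9me2 and input samples were not analysed here.

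Intervals of the 4 lists were merged where they overlapped or touched (Python 3.11.15, numpy 2.4.6, pandas 2.3.3). A gained region had a peak in UNC0638 alone and a lost region in DMSO alone. Regions were set beside GENCODE M21 basic genes and the GRCm38.p6 sequence (samtools 1.23.1). Copies covered at least 80% at 95% identity (minimap2 2.31). Flanking windows overlapped no peak. Shares have Wilson 95% intervals (scipy 1.17.1). The functions were tested on simulated lists. The named genes were those at the 10 isolated regions with the highest lower score, the 10 genes with the most members and listed genes within 50 kb, and other promoter genes were taken in order of lower score. Members, lists and strings were chosen with earlier results of these data known. Alternatives changed the score minimum, the margin, the overlap, the merging distance, list length and windows. No test between lists was made.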

Additional observations from a re-analysis of the deposited data

How the results depend on the processing

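Each of 7 results was recomputed under 28 alternatives in all, 13 of which left the value within 1.5 times (counts) or within its 95% interval (shares and medians), and 15 of which moved it, while none could be tested. The 1088 regions became 777 without peaks of the excluded lists within 1 kb, 507 within 5 kb, 898 with a reciprocal overlap of 50%, 798 with intervals up to 1 kb apart merged, and 115 with both member scores at 100 or more. With a score of at least 100 asked of all 4 lists the count was 722 and included 115 of the original regions, since weak peaks in the excluded lists then no longer count. With 18789 peaks from each list it was 383, including 178 (16.4%) of the original regions. The promoter share of 16.2% became 24.5% and 24.8% under these last 2 settings, 25.7% with a window of 2.5 kb and 12.1% with protein-coding TSSs only. Median TSS distance moved from 10.4 to 7.09 and 7.60 kb under the same 2 settings, and median GC from 48.8% to 49.2% with equal list lengths. The AP-1 share of 14.6% was 17.1% without peaks of the excluded lists within 1 kb and 25.6% in windows of 600 bases. Listed genes with a member fell from 45 of 243 to 25 with a margin of 10 kb, and were 59 with 100 kb. Of 4 alternatives added after seeing the data, a margin of 5 kb for excluded peaks at promoters took the share of genes without such a peak from 67.9% to 54.3%. Other causes were not tested.

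No paired analysis was possible because each group has 1 merged list, and for the same reason no replicate was left out. A list ends at a calling cutoff of 50, and 530 of the 1088 regions had both scores under 100. Depth was unknown, and acetylation between the called peaks was not measured here.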
